A study of Homo sapiens with 6 samples.

Results

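The SR protein genes and the hnRNP genes encode the main families of regulatory splicing factors. They were found by gene symbol in the deposited table, as SRSF or HNRNP followed by a number or letter code, and 62 matching symbols that end as pseudogene names were left out. This gave 32 genes of 30735 in the table, 11 of the SR family and 21 of the hnRNP family, and all 32 passed the filter on low values (at least 1 FPKM in at least 3 libraries). RNA came from SET-2, an established human megakaryoblastic leukaemia line with a mutant JAK2 that is used as a model of myeloproliferative neoplasms. There were 3 libraries of SET-2 cells treated with CPL and 3 of SET-2 cells given a placebo, called control here. Neither the identity of CPL nor its dose or time is given by the labels. Whether replicates came from independent cultures is not stated either, so a p-value measures only the spread among these libraries, which may be technical.

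SR proteins carry RNA recognition motifs and a tail rich in arginine and serine. They bind exon sequences and help U1 snRNP and U2AF to find the splice sites, and the kinases of the SRPK and CLK families phosphorylate the tail. The hnRNP proteins coat nascent transcripts and often repress nearby splice sites, and both families take part in many alternative splicing choices. Many genes of both families hold exons or introns whose inclusion sends their own mRNA to nonsense-mediated decay, a feedback on their level. SRSF2 is one of the splicing genes recurrently mutated in myeloid neoplasms, together with SF3B1, U2AF1 and ZRSR2.

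Of the 6 libraries, recovered reads gave depths of 15475662 to 16168745 in CPL and 14641897 to 18231777 in control. A floor of 3 reads on a gene of 1000 bases lay at 0.186 to 0.194 FPKM in CPL and 0.165 to 0.205 FPKM in control, for counting error only. The members had between 64 reads (HNRNPA1L2, CPL replicate 1) and 35796 reads (HNRNPA2B1, control replicate 3), so depth limited none but HNRNPA1L2. CPL replicate 1 stood apart by the GC content of the genes. The rank correlation between a gene's GC content and its deviation from the mean of all 6 libraries was 0.736 in CPL replicate 1 and between −0.510 and −0.00493 in the other 5, across 13074 genes that are not independent replicates. The members were poorer in GC (median 41.3% of the longest transcript) than all tested genes (47.6%). Log2 changes are therefore given as deposited and with the GC trend removed from each library. As a check of the label, 6 of 8 megakaryocyte markers averaged at least 1 FPKM, with a summed level of 368 to 532 FPKM in CPL and 356 to 401 FPKM in control. Erythroid markers, of which 3 of 4 averaged at least 1 FPKM, summed to 230 to 609 FPKM in CPL and 290 to 331 FPKM in control. Monocyte markers (1 of 4) summed to 40.1 to 43.6 FPKM in CPL and 41.5 to 46.2 FPKM in control, and lymphocyte markers (2 of 5) to 18.02 to 26.3 FPKM in CPL and 20.4 to 25.8 FPKM in control. The part of these levels in the results was not tested. Fibroblast and epithelial markers summed to at most 0.870 FPKM in CPL and 1.01 FPKM in control.

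Most SR and hnRNP genes had lower FPKM in CPL than in control, with the most negative change in SRSF1 and HNRNPA1 of their families. By log2 change 28 of 32 were negative, against 50.8% of all tested genes. But no member passed the test over all genes in the values as deposited, where 1.76% of tested genes did. SRSF1, HNRNPA1, HNRNPDL, HNRNPM and SRSF2 were called lower and HNRNPLL higher once the GC trend was removed, where 6.36% of all tested genes were called lower and 7.14% higher. Of these members SRSF1 alone was also called in each of the 6 fits that then left out 1 library. Over all tested genes these fits, which share libraries, called 425 to 591 higher and 338 to 589 lower. The share of all tested genes called in all 6 was not counted. As deposited, the median change was −0.21 in the SR family and −0.22 in the hnRNP family, and the difference between the families was not tested. The difference between CPL and control is relative to all RNA in the library, and in bulk RNA fewer cells of a type and less RNA per cell cannot be told apart.

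To show the sequence before a start site of the called genes, the 250 bases upstream of RefSeq's start are printed 5′ to 3′ for those 4 of the 6 genes with an entry in RefSeq's promoter table (GRCh38.p14). The regions are chr17:58007247-58007496 (minus strand) for SRSF1, chr4:82430226-82430475 (minus) for HNRNPDL at the first start listed, chr19:8444725-8444974 (plus) for HNRNPM and chr2:38602929-38603178 (minus) for HNRNPLL. In all 4 genes this start lies inside the gene bounds given with the values, so each window overlaps those bounds and that of HNRNPLL lies wholly within them. HNRNPA1 and SRSF2 are named only. Capitals mark matches, on either strand, to the letters of 8 motifs named after the sequences.
SRSF1: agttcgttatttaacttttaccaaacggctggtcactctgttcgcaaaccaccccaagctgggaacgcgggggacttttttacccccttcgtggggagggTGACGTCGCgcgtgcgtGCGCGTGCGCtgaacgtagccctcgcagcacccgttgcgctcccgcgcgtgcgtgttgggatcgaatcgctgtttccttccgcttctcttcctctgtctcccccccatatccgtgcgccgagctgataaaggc
HNRNPDL: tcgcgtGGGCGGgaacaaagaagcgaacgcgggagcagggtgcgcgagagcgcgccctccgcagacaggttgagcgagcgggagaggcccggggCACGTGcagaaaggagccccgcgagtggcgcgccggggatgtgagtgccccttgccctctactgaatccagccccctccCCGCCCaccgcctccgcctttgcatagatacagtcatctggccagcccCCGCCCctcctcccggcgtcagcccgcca
HNRNPM: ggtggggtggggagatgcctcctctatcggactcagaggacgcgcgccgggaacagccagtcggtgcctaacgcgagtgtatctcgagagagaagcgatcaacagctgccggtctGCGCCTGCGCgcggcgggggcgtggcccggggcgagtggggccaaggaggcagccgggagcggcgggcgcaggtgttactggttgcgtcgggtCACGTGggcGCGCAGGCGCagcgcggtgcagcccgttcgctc
HNRNPLL: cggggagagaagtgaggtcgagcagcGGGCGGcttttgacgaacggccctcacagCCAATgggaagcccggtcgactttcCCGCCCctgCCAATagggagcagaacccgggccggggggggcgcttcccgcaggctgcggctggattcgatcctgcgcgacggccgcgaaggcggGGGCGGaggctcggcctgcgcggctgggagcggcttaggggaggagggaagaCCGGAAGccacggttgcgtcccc

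The motifs searched were the E-box (letters CACGTG), the CCAAT box, the NRF1 core, the ETS core CCGGAAG, the GC box GGGCGG, the TATA box (TATAAA), the antioxidant response element core TGACNNNGC and the YY1 core AAGATGGCG. A promoter was matched for 30 of the 32 members, 10 SR and 20 hnRNP genes. The SRSF1 window held 1 match to the NRF1 core and 1 to the antioxidant response element core, letters found in 4 of 30 members each and in 5.07% and 10.9% of 35116 promoters. HNRNPM held 2 NRF1 core matches and 1 E-box, and HNRNPDL held 1 E-box and 3 GC boxes. HNRNPLL, the gene called higher, held 2 CCAAT boxes, 3 GC boxes and 1 ETS core. The E-box occurred in 6 of 20 hnRNP promoters and 0 of 10 SR promoters, against 6.34% of all promoters, and CCAAT in 13 of 20 and 2 of 10, against 32.01%. GC boxes were in 16 of 20 hnRNP and 3 of 10 SR promoters, against 42.6% of all. The YY1 core was in 0 of 30 members and in 0.652% of all promoters. Members had a median of 25 CpG dinucleotides in these bases, against 11 in all promoters. These matches are letters in a window and were not tested as binding sites.

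SRSF1 (ENSG00000136450, GRCh38 chromosome 17, 58003360 to 58007346) encodes the founding SR protein, which also acts in mRNA export and translation. It had 77.8, 97.5 and 105.6 FPKM in CPL replicates 1, 2 and 3, against 142, 138 and 135 FPKM in control replicates 1, 2 and 3. All CPL libraries lay below all controls, and CPL replicate 1 was the lowest. The mean was 93.6 ± 14.3 FPKM in CPL and 138 ± 3.56 FPKM in control (SD, n = 3 each, as for all means below), a ratio of 0.676. Its log2 change was −0.57 ± 0.13 (SE) and missed the threshold (limma adjusted p = 0.0736). Without CPL replicate 1 it was −0.44 and passed (limma adjusted p = 0.0236), the only member called in that fit, where 2.59% of tested genes were called lower. After removal of the GC trend it was −0.47 ± 0.06 (limma adjusted p = 0.00556), and it passed in each of the 6 fits that then left out 1 library, with adjusted p between 0.0147 and 0.0283. How many of all tested genes passed in all 6 was not counted. Of its merged exon bases, 56.6% are shared on the same strand with AC015813.2, for which no value is used here.

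SRSF2 (ENSG00000161547, chromosome 17, 76734115 to 76737374) encodes an exon enhancer binding factor. It had 76.4, 98.1 and 92.1 FPKM in CPL replicates 1, 2 and 3, and 106, 118 and 114 FPKM in the controls in the same order of replicates. The groups did not overlap. Its log2 change of −0.35 ± 0.12 did not pass as deposited (limma adjusted p = 0.175) and passed narrowly with the GC trend removed (−0.29 ± 0.08, limma adjusted p = 0.0484). That call was lost in all 6 fits without 1 library, with adjusted p between 0.0588 and 0.141. SRSF2 shares 36.7% of its exon bases with MFSD11 on the opposite strand, and the labels do not say that strand was kept. MFSD11 had 538 to 577 reads in CPL libraries and 481 to 608 in control libraries.

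SRSF10 encodes an SR protein that acts as a repressor when dephosphorylated. It had 22.8, 29.3 and 33.03 FPKM in CPL replicates 1 to 3 and 35.1, 35.8 and 33.6 FPKM in control replicates 1 to 3. CPL replicate 1 was the lowest library and no CPL library reached a control. The log2 change was −0.30 ± 0.14 as deposited (limma adjusted p = 0.287), and −0.19 ± 0.06 with the GC trend removed (limma adjusted p = 0.0784).

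SRSF3 and SRSF7 encode closely related SR proteins that couple splicing to mRNA export. SRSF3 averaged 57.8 ± 2.06 FPKM in CPL and 71.2 ± 2.71 FPKM in control, and SRSF7 50.9 ± 2.82 FPKM in CPL and 58.8 ± 0.922 FPKM in control. Neither passed (limma adjusted p = 0.136 and 0.259), although for both genes every CPL library lay below every control. SRSF4, SRSF5 and SRSF6 form another close group, with 2 RNA recognition motifs. SRSF6 was at 64.2 ± 4.59 FPKM in CPL and 77.9 ± 1.39 FPKM in control, without overlap (limma adjusted p = 0.174). SRSF5 was at 64.5 ± 3.002 FPKM in CPL and 71.7 ± 4.21 FPKM in control, with overlapping groups. SRSF4 was at 19.8 ± 0.687 FPKM in CPL and 20.8 ± 1.12 FPKM in control, also with overlap. SRSF11, an SR-like factor, was at 55.9 ± 10.2 FPKM in CPL and 60.9 ± 4.26 FPKM in control. SRSF8, a paralog of SRSF2, was at 24.7 ± 1.43 FPKM in CPL and 26.8 ± 1.596 FPKM in control. As deposited and after removal of the GC trend, the log2 changes were −0.30 and −0.18 for SRSF3, −0.21 and −0.10 for SRSF7, −0.28 and −0.16 for SRSF6 and −0.15 and −0.04 for SRSF5. They were −0.07 and 0.04 for SRSF4, −0.13 and −0.00194 for SRSF11 and −0.11 and −0.04 for SRSF8, and none of these 7 genes was called in either fit.

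SRSF9, a small paralog of SRSF1, was the only SR gene with a positive change. It had 31.6, 22.7 and 21.97 FPKM in CPL replicates 1 to 3, against 25.1, 20.999 and 23.1 FPKM in control replicates 1 to 3. CPL replicate 1 was above every other library and the groups overlapped. Its log2 change was 0.12 ± 0.15 (limma adjusted p = 0.708) and −0.04 without CPL replicate 1, and it was 0.21 with the GC trend removed (limma adjusted p = 0.539). SRSF9 shares 46.2% of its exon bases with GATC on the opposite strand, which had 497 to 550 reads in CPL and 587 to 734 in control.

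**Figure D1:**
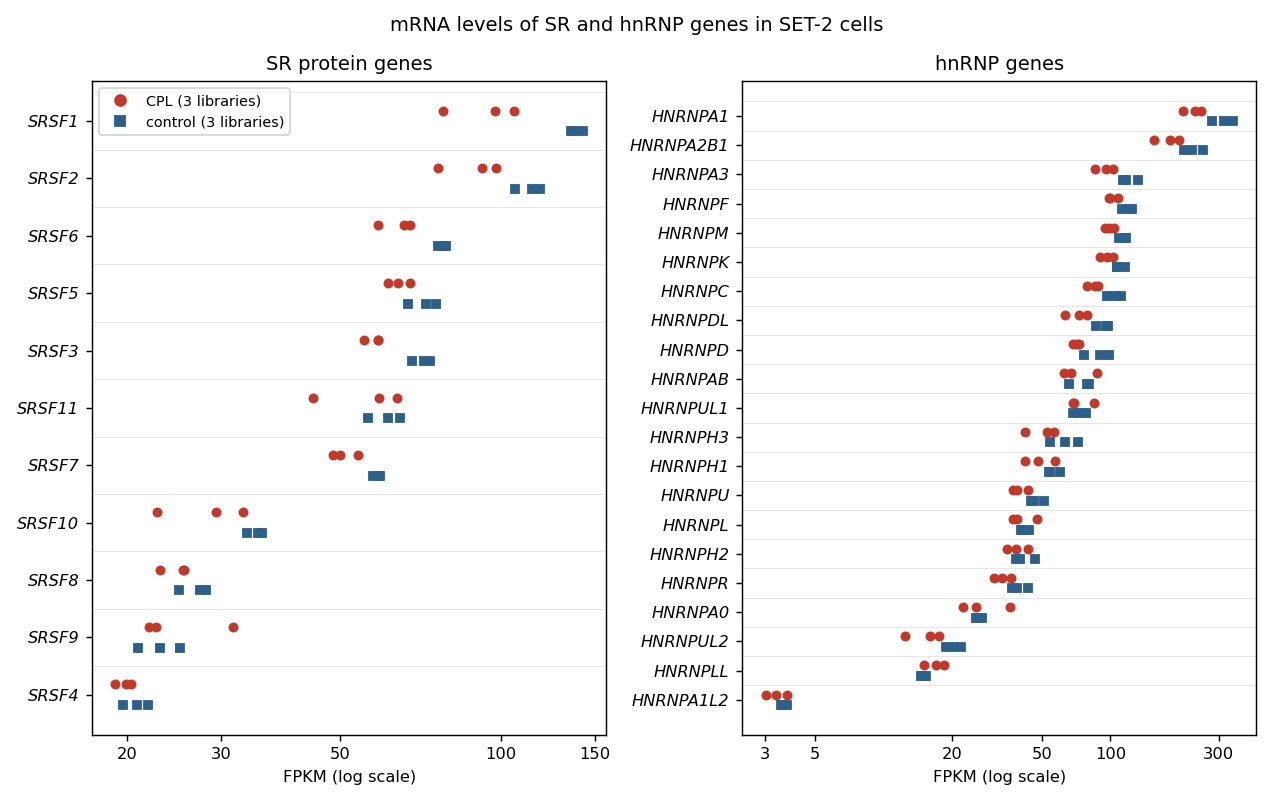
FPKM (log axis) of each SR gene (left) and hnRNP gene (right) in the 3 CPL libraries (circles) and the 3 control libraries (squares), ordered by mean control level. SRSF1 and HNRNPA1 stand highest in their families, and in 18 of the 32 genes all circles lie left of all squares, as in 14.9% of all tested genes.

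HNRNPA1 (ENSG00000135486, chromosome 12, 54280193 to 54287088) was the most abundant member in control cells. It encodes a repressor of exon inclusion that shuttles between nucleus and cytoplasm. It had 208, 235 and 250.1 FPKM in CPL replicates 1, 2 and 3, against 347, 281 and 317 FPKM in control replicates 1, 2 and 3. The groups did not overlap. Means were 231 ± 21.3 FPKM in CPL and 315 ± 33.0 FPKM in control, a ratio of 0.734. The log2 change was −0.44 ± 0.12 as deposited (limma adjusted p = 0.113) and −0.36 ± 0.10 with the GC trend removed (limma adjusted p = 0.0495). That call was kept in 1 of 6 fits without 1 library (adjusted p between 0.0269 and 0.142). HNRNPA1 has 37 pseudogenes in the table, and their reads summed to 1.52% to 2.27% of its own, and how reads were divided among these copies is uncertain.

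Its paralogs followed a like pattern in part. HNRNPA2B1 encodes the A2 and B1 proteins, the partners of A1 in the core particle. It was at 180 ± 22.8 FPKM in CPL and 232 ± 22.6 FPKM in control, without overlap (log2 change −0.37, limma adjusted p = 0.183). HNRNPA3 was at 94.7 ± 8.97 FPKM in CPL and 121 ± 10.2 FPKM in control, without overlap (log2 change −0.35, limma adjusted p = 0.157). HNRNPA1L2, an intronless copy of HNRNPA1, was low, at 3.39 ± 0.370 FPKM in CPL and 3.64 ± 0.119 FPKM in control, with overlapping groups (limma adjusted p = 0.717). Log2 changes without the GC trend were −0.25 for HNRNPA2B1, −0.22 for HNRNPA3 and −0.02 for HNRNPA1L2, and none was called.

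HNRNPA0, the remaining A-type gene, had 36.1, 25.6 and 22.3 FPKM in CPL replicates 1 to 3 and 27.2, 25.6 and 25.9 FPKM in control replicates 1 to 3. As for SRSF9, CPL replicate 1 was the highest library and the 2 other CPL libraries lay within or below the controls. The log2 change was 0.07 ± 0.17 (limma adjusted p = 0.863) and −0.13 without CPL replicate 1, and it was 0.17 with the GC trend removed (limma adjusted p = 0.677).

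HNRNPD, also known as AUF1, and its paralog HNRNPDL bind AU-rich elements and lie 48060 bases apart on chromosome 4. HNRNPDL (ENSG00000152795, 82422564 to 82430408) had 63.02, 72.7 and 79.2 FPKM in CPL replicates 1 to 3, against 97.9, 86.6 and 95.9 FPKM in control replicates 1 to 3. The groups did not overlap. Its log2 change was −0.38 ± 0.11 as deposited (limma adjusted p = 0.136) and −0.32 ± 0.08 with the GC trend removed (limma adjusted p = 0.0357), a call kept in 1 of 6 fits without 1 library. HNRNPD was at 70.6 ± 2.11 FPKM in CPL and 88.6 ± 11.3 FPKM in control, without overlap (limma adjusted p = 0.199). HNRNPAB, a related gene, was at 72.02 ± 13.1 FPKM in CPL and 74.9 ± 8.06 FPKM in control, with overlap. As deposited and after removal of the GC trend, the log2 changes were −0.32 and −0.18 for HNRNPD and −0.06 and −0.12 for HNRNPAB.

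HNRNPM (ENSG00000099783, chromosome 19, 8444767 to 8489114) encodes a protein that binds GU-rich RNA. It had 103, 94.2 and 98.3 FPKM in CPL replicates 1 to 3, and 116, 109 and 117 FPKM in control replicates 1 to 3. The groups did not overlap and the spread was small in both. Its log2 change of −0.21 ± 0.09 did not pass as deposited (limma adjusted p = 0.257). With the GC trend removed it was −0.28 ± 0.06 (limma adjusted p = 0.0339), kept in 1 of 6 fits without 1 library. With 54.9% GC, HNRNPM is among the members richest in GC, and the removal made its difference larger, whereas it made that of SRSF1 and HNRNPA1 smaller.

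HNRNPL and its paralog HNRNPLL bind CA-rich RNA, and HNRNPLL is known as a regulator of CD45 splicing in lymphocytes. HNRNPLL (ENSG00000143889, chromosome 2, 38561978 to 38603586) had 15.1, 17.04 and 18.4 FPKM in CPL replicates 1 to 3, against 14.6, 15.3 and 15.1 FPKM in control replicates 1 to 3. CPL replicate 1 lay among the controls and the other CPL libraries above them. Its log2 change was 0.15 ± 0.11 as deposited (limma adjusted p = 0.459) and 0.27 ± 0.06 with the GC trend removed (limma adjusted p = 0.0287). This call was lost in all 6 fits without 1 library, with adjusted p between 0.0579 and 0.0844. HNRNPL was at 41.1 ± 5.58 FPKM in CPL and 41.8 ± 1.71 FPKM in control, with a log2 change of −0.03 in both fits.

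Among the U-type genes, which encode scaffold proteins that bind RNA and chromatin, HNRNPUL2 had 12.5, 16.03 and 17.7 FPKM in CPL replicates 1 to 3 and 21.9, 18.8 and 20.3 FPKM in control replicates 1 to 3. The groups did not overlap. Its log2 change of −0.39 ± 0.14 (limma adjusted p = 0.193) was −0.42 ± 0.14 with the GC trend removed (limma adjusted p = 0.102). It shares 44.1% of its exon bases with the readthrough gene HNRNPUL2-BSCL2, which had at most 8 reads. HNRNPU was at 39.7 ± 3.15 FPKM in CPL and 47.2 ± 3.37 FPKM in control, without overlap (log2 change −0.25 as deposited, limma adjusted p = 0.246, and −0.12 with the GC trend removed). HNRNPUL1 had 84.8, 68.9 and 68.4 FPKM in CPL replicates 1 to 3 and 78.1, 68.5 and 73.5 FPKM in control replicates 1 to 3, with overlap. The log2 change was 0.01 ± 0.12 as deposited (limma adjusted p = 0.982) and −0.09 ± 0.06 with the GC trend removed. HNRNPUL1 shares 3.29% of its exon bases with TGFB1 on the opposite strand. TGFB1 had 11537, 7434 and 6247 reads in CPL replicates 1 to 3 and 4628, 5328 and 5809 in control replicates 1 to 3. The part of such reads in the HNRNPUL1 values was not tested.

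HNRNPF and the HNRNPH genes encode proteins that bind G-tracts. HNRNPF was at 102 ± 5.08 FPKM in CPL and 119 ± 6.01 FPKM in control, without overlap (limma adjusted p = 0.242). HNRNPH1 was at 48.96 ± 7.42 FPKM in CPL and 55.9 ± 3.57 FPKM in control, with overlap. HNRNPH2 was at 38.9 ± 4.06 FPKM in CPL and 41.6 ± 4.41 FPKM in control, and HNRNPH3 at 50.3 ± 7.56 FPKM in CPL and 63.2 ± 9.02 FPKM in control, both with overlap. HNRNPC, whose protein binds U-tracts, was at 84.1 ± 4.99 FPKM in CPL and 105 ± 7.58 FPKM in control (limma adjusted p = 0.157). HNRNPK, whose protein binds C-rich RNA, was at 96.5 ± 6.21 FPKM in CPL and 110 ± 5.14 FPKM in control (limma adjusted p = 0.325). HNRNPR was at 33.5 ± 2.94 FPKM in CPL and 39.7 ± 3.37 FPKM in control (limma adjusted p = 0.282). In these last 3 genes no CPL library reached a control. As deposited and after removal of the GC trend, the log2 changes were −0.22 and −0.20 for HNRNPF, −0.20 and −0.06 for HNRNPH1, −0.09 and 0.00339 for HNRNPH2 and −0.32 and −0.24 for HNRNPH3. They were −0.31 and −0.20 for HNRNPC, −0.19 and −0.09 for HNRNPK and −0.24 and −0.10 for HNRNPR, and none of these 7 genes was called in either fit.

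**Figure D2:**
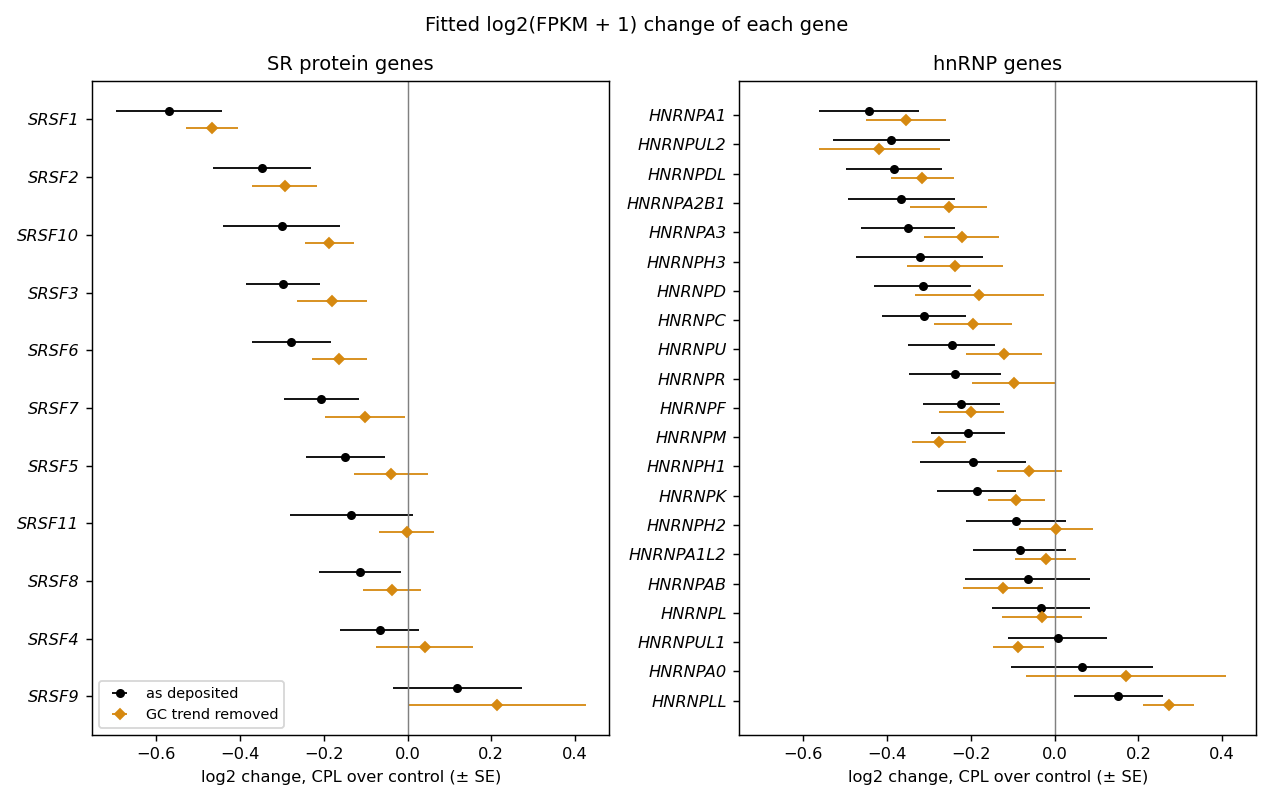
Fitted log2(FPKM + 1) change, CPL over control, with its SE for each SR gene (left) and hnRNP gene (right), as deposited (circles) and with the GC trend removed (diamonds). SRSF1 has the largest negative change as deposited at −0.57, and 28 of the 32 circles lie left of 0, against 50.8% of all tested genes. With the GC trend removed 27 of the 32 diamonds lie left of 0, against 48.8% of all tested genes.

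Counted together, 28 of the 32 members had a negative log2 change as deposited, 10 of 11 SR and 18 of 21 hnRNP genes, against 50.8% of all 13092 tested genes. In limma with Benjamini-Hochberg adjustment at 0.05, none of the 32 was called, where 1.76% of tested genes were called in either direction, 0.665% lower and 1.09% higher. At an unadjusted p under 0.05, 13 members were lower (4 SR, 9 hnRNP) and none was higher, where 10.0% of tested genes were lower, 9.54% higher and 19.5% either. In 18 members (6 SR, 12 hnRNP) every CPL library lay below every control, and in none above, where 14.9% of tested genes did so below and 14.1% above. After removal of the GC trend 5 members were called lower (2 SR, 3 hnRNP) and 1 higher, where 6.36% of 13074 tested genes were called lower and 7.14% higher. These are counts over genes chosen as families and measured in the same 6 libraries, so the members are not independent of each other. The members were also more abundant, with a median control level of 67.2 FPKM against 6.16 FPKM in all tested genes. Shares among tested genes of a like level were not computed.

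The families had close medians. As deposited, the median log2 change was −0.21 for the SR genes and −0.22 for the hnRNP genes, beside −0.01 for all tested genes. After removal of the GC trend the medians were −0.10 and −0.12, beside 0.01 for all tested genes. With CPL replicate 1 left out as well, they were −0.15 and −0.19, with 30 of 32 members negative. With CPL replicate 3 left out instead, they were −0.0121 and −0.0989. Summed FPKM of the SR genes was 523, 595 and 604 in CPL replicates 1 to 3, against 702, 696 and 693 in control replicates 1 to 3. Summed FPKM of the hnRNP genes was 1435, 1480 and 1559 in CPL replicates 1 to 3, against 1938, 1660 and 1803 in control replicates 1 to 3. Both sums were lower in every CPL library than in every control library, and their CPL means lay 17.7% and 17.2% below the control means. The sums are of values as deposited, with the GC trend not removed. The SR sum divided by the hnRNP sum was 0.364, 0.402 and 0.387 in CPL and 0.362, 0.419 and 0.385 in control, so the ratio overlapped between the groups. SRSF1 made up 14.9% to 17.5% of the SR sum in CPL and 19.5% to 20.3% in control, and HNRNPA1 14.5% to 16.04% of the hnRNP sum in CPL and 16.9% to 17.9% in control.

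Libraries of the same group also differed. The median deviation of SR genes from the control mean was −0.36, −0.15 and −0.12 (log2) in CPL replicates 1, 2 and 3, and that of hnRNP genes −0.31, −0.25 and −0.19. For the hnRNP genes control replicate 1 was at 0.10 and control replicate 2 at −0.10. CPL replicate 1 was the lowest CPL library for 22 of 32 members and the highest for 8. Across the 32 members the deviation in CPL replicate 1 had a rank correlation of 0.260 with GC content, given as a description.

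**Figure D3:**
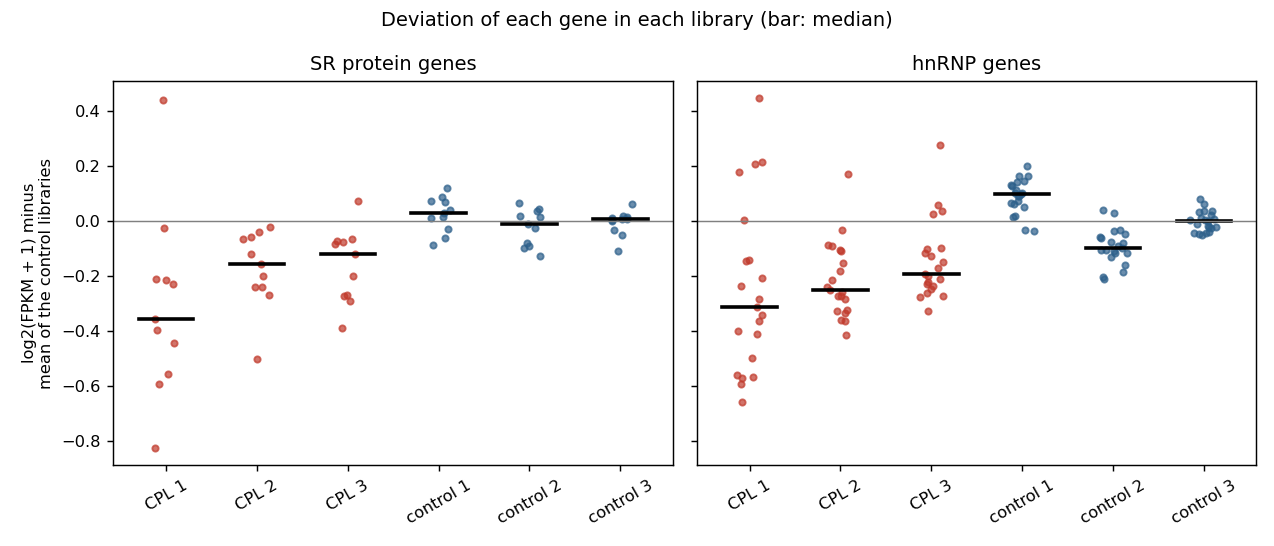
Deviation of each gene's log2(FPKM + 1) from the mean of the control libraries, in each of the 6 libraries, for SR genes (left) and hnRNP genes (right), with the median as a bar. SR medians are −0.36, −0.15 and −0.12 in the CPL libraries.

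Across the 32 members the more abundant genes had the more negative change (Spearman rho = −0.60 between mean control FPKM and log2 change, −0.69 with the GC trend removed). This is a description over genes that share the 6 libraries, and the control level enters both measures. The same relation over all tested genes was not computed, so it is not shown to be particular to these families. GC content and change were weakly related among the members (rho = 0.13 as deposited). By annotation, all 11 SR genes and 13 of 21 hnRNP genes have a GENCODE 29 transcript marked for nonsense-mediated decay, against 44.7% of 10449 tested protein-coding genes, with 9 such transcripts in HNRNPU and 6 in SRSF7. A retained-intron transcript is annotated for 22 of the 32, against 59.0% of those genes. FPKM per gene adds all isoforms, so it does not show which isoform of a gene differed.

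The machinery around these factors was read from 7 lists chosen from general knowledge, with earlier results of these data known. Of 125 genes listed 123 were tested and none was called as deposited, 79 had a negative change (50.8% of all tested genes did), and the median was −0.08. At an unadjusted p under 0.05, 20 of the 123 were lower and 1 higher, where 10.0% of all tested genes were lower and 9.54% higher. After removal of the GC trend 12 were called lower and 3 higher, where 6.36% of all tested genes were called lower and 7.14% higher.

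The U1 and U2 snRNP and 3′ splice site factors, which recognise the intron ends, had a median of −0.17, the lowest of the 7 lists as deposited. Of 30 tested genes 22 had a negative change, against 50.8% of all tested genes, and 11 were lower at an unadjusted p under 0.05, against 10.0%. After removal of the GC trend 6 were called lower, against 6.36% of all tested genes, and none higher, against 7.14%. SNRPE, an Sm core protein gene, was at 70.1 ± 11.95 FPKM in CPL and 104 ± 4.62 FPKM in control, with adjusted p of 0.0887 as deposited and 0.0177 with the trend removed (limma). SNRPD1, another Sm gene, was at 29.4 ± 6.09 FPKM in CPL and 44.3 ± 3.24 FPKM in control (limma adjusted p = 0.111 and 0.0159). SF3A3, a U2 snRNP subunit gene, was at 44.3 ± 6.18 FPKM in CPL and 59.4 ± 0.709 FPKM in control (limma adjusted p = 0.120 and 0.0280). With the trend removed and 1 library left out, SNRPD1 kept its call in 5 of 6 fits, SNRPE in 4 and SF3A3 in 2.

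The other genes recurrently mutated in myeloid neoplasms were not called by either fit. SF3B1 was at 54.03 ± 8.85 FPKM in CPL and 58.3 ± 3.21 FPKM in control (limma adjusted p = 0.655). ZRSR2 was at 5.17 ± 0.546 FPKM in CPL and 6.58 ± 0.755 FPKM in control (limma adjusted p = 0.241). U2AF1 was at 5.51 ± 0.785 FPKM in CPL and 4.74 ± 0.484 FPKM in control (limma adjusted p = 0.479). Its level is uncertain because this build also holds a near-identical copy, U2AF1L5, for which no value is used here.

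The SR protein kinases and phosphatases, SRPK and CLK genes among them, had no call in either fit over 12 tested genes and a median change of −0.04. Of 19 SR-related factors 13 had a negative change (median −0.12), and TRA2A and BCLAF1 were called lower with the GC trend removed. TRA2A, a splicing activator, was at 22.2 ± 4.23 FPKM in CPL and 29.9 ± 1.59 FPKM in control (limma adjusted p = 0.0414 with the trend removed). BCLAF1, an arginine and serine rich factor, was at 25.04 ± 5.26 FPKM in CPL and 33.7 ± 2.49 FPKM in control (limma adjusted p = 0.0317 likewise). These 2 of 19 stand beside 6.36% of all tested genes called lower in that fit, and when 1 library was left out TRA2A kept its call in 2 of 6 fits and BCLAF1 in 1. Of 19 hnRNP-type genes with other symbols 13 had a negative change (median −0.14). SYNCRIP, also known as hnRNP Q, was at 40.5 ± 7.57 FPKM in CPL and 56.4 ± 2.14 FPKM in control (limma adjusted p = 0.136 as deposited and 0.0126 with the trend removed), a call kept in 4 of 6 fits without 1 library. It was the 1 call among these 19 with the trend removed, beside 6.36% of all tested genes called lower.

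In the decay and exon junction list of 15 genes (median −0.06), MAGOHB, which encodes an exon junction core protein, was at 6.44 ± 0.568 FPKM in CPL and 9.87 ± 0.676 FPKM in control (limma adjusted p = 0.0534 as deposited, 0.0227 with the trend removed), a call kept in 1 of 6 fits without 1 library. Of 22 tri-snRNP, Prp19 and helicase genes (median −0.05), 2 were called lower and 2 higher with the trend removed, near the shares of all tested genes (6.36% lower, 7.14% higher). PRPF19, the ubiquitin ligase of the Prp19 complex, was at 93.3 ± 7.19 FPKM in CPL and 109 ± 4.89 FPKM in control. PRPF3 was at 10.3 ± 0.435 FPKM in CPL and 12.9 ± 0.677 FPKM in control, and PLRG1, called higher, at 19.7 ± 2.04 FPKM in CPL and 17.5 ± 0.590 FPKM in control. Of 6 nuclear import receptor genes (median −0.01), KPNA1 was called higher with the trend removed, at 10.8 ± 1.25 FPKM in CPL and 9.75 ± 0.542 FPKM in control. MAGOHB was thus 1 call of 15 and KPNA1 1 of 6, beside 6.36% of all tested genes called lower and 7.14% higher. Without 1 library, PLRG1 kept its call in 2 of 6 such fits, PRPF19 and KPNA1 in 1 each and PRPF3 in 0. The transportin genes TNPO1 and TNPO3, whose products import hnRNP A1 and SR proteins, were not called in either fit.

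**Figure D4:**
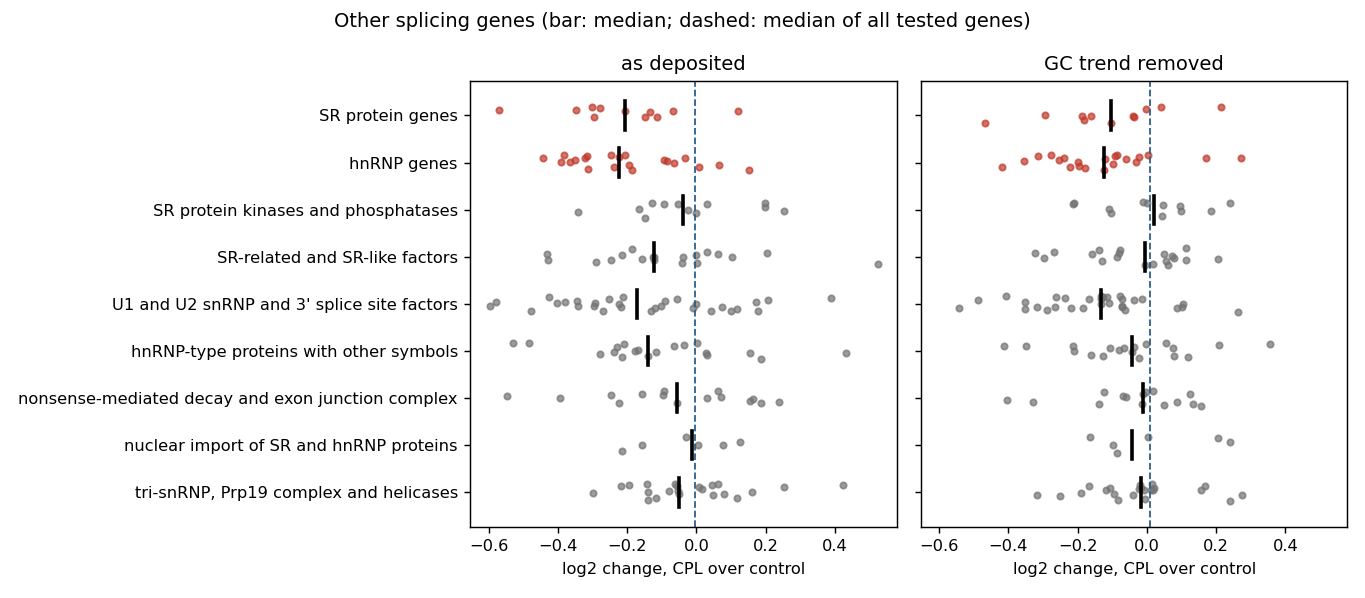
Log2 change, CPL over control, of each tested gene of the SR and hnRNP families (top rows) and of 7 lists of other splicing genes, as deposited (left) and with the GC trend removed (right). The SR and hnRNP medians are −0.21 and −0.22 as deposited, that of the U1 and U2 snRNP list −0.17, and the median of all tested genes −0.01.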

How the data were processed

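Polyadenylated RNA of SET-2 cells was sequenced as single-end reads of 50 bases, per the labels' protocols. Titles gave the group and replicate number of each library. The authors deposited FPKM values for 30735 genes; no header names the unit, which was taken from the values. Per the submitters' processing notes, the build was GRCh38 and the tools named, with no role, are RSEM 1.2.12, DESeq2 1.4.5, Bowtie2 2.2.5 and HISAT2 2.0.4. Each value multiplied by the merged exon length in GENCODE 29 and by a depth for its library gave reads. That depth was found by a search for the one that made most low values whole. With it 98.7% to 99.0% per library were whole within 0.1 (values up to 20 reads), a share that the search itself favours.

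Values were set to log2(FPKM + 1), and the 13092 genes reaching 1 FPKM in 3 or more libraries were tested with limma 3.58.1 in R 4.3.3 (trend and robust moderation, group as the only term, two-sided, Benjamini-Hochberg over all tested genes at 0.05). FPKM divides by the library total, and fold changes on this scale understate those of low genes. The GC trend was removed from each library by loess (span 0.5) of the deviation from the gene mean on the GC content of the longest transcript, over 13074 genes. The functions were tested on simulated reads. The members, gene lists and alternatives were chosen with earlier results of these data known. Chi-square per degree of freedom between libraries of a group was 7.84 to 56.5, above counting noise, with 33.9 and 56.5 in the pairs that hold CPL replicate 1. Each library was treated as 1 sample, and these values do not show whether the libraries are independent. All members are named, with values in every library for those called in either fit and the 3 largest changes of each family and sign. Of the other lists up to 3 genes each called with the GC trend removed are named, with SF3B1, U2AF1 and ZRSR2. Proteins were not used here. Tables were made with pandas 2.3.3 and numpy 2.4.6 under Python 3.11.15, and figures with matplotlib 3.10.9.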

Additional observations from a re-analysis of the deposited data

How the results depend on the processing

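Of 671 values of a member's log2 change over 21 alternative settings, 616 kept direction and side of the threshold, 17 kept direction and passed it, and 38 changed sign. Pseudocounts of 0.1 or 0.01, a 5 FPKM filter, quantile normalization and median scaling left 0 members called. Causes were not tested. Under quantile normalization the SR median was −0.148 and the hnRNP median −0.172, where the fit as reported had −0.206 and −0.223. HNRNPL was at 0.0346 under quantile normalization and HNRNPUL1 at −0.0167 under median scaling. Without a filter on low values 21 genes were called higher and 4 lower over all genes, where the fit as reported called 143 and 87. The 5 FPKM filter called 1 decay or exon junction gene. Over all genes that filter also called more in each direction than the 143 higher and 87 lower of the fit as reported. With the GC trend removed 933 genes were called higher and 832 lower, SR genes 2 lower, hnRNP genes 1 higher and 3 lower, SR-related genes 2, hnRNP-type genes 1, U1 and U2 genes 6, tri-snRNP genes 4, import genes 1 and decay genes 1. The hnRNP median was then −0.123, and HNRNPH2 (0.00339), HNRNPUL1 (−0.0869) and SRSF4 (0.0408) changed sign.

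Deviations of same-numbered libraries from their group means correlated at 0.0836, 0.0885 and −0.168, and those of differently numbered libraries at −0.229 to 0.222. With 3 libraries a group, whose deviations depend on each other, these values cannot decide whether the numbers pair libraries. A replicate block called 48 genes higher and 15 lower and 0 members. The replicate block with the GC trend removed called 581 higher and 512 lower, SR genes 1 (SRSF1), hnRNP-type genes 1, U1 and U2 genes 3 and decay genes 1, with a hnRNP median of −0.123 and the same 3 sign changes.

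Leaving out 1 library at a time gave 17 to 364 genes higher and 1 to 339 lower as deposited, the most without CPL replicate 1 and the fewest without control replicate 1. Calls ranged from 0 to 1 for SR genes lower, 0 to 2 for U1 and U2 genes and 0 to 1 for decay genes. The hnRNP median ranged from −0.299 to −0.19. Log2 changes that changed sign ranged from −0.126 to 0.209 (HNRNPA0), −0.0939 to 0.0597 (HNRNPUL1), −0.239 to 0.0182 (SRSF11), −0.0417 to 0.210 (SRSF9), −0.138 to 0.0354 (HNRNPL) and −0.206 to 0.0326 (HNRNPAB).

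The GC trend was also removed with 1 library left out, where all fits but that without CPL replicate 1 were chosen after seeing the data. Each of these 6 fits called 1 SR gene lower, SRSF1. Without CPL replicate 1, 591 genes were called higher and 589 lower, among them 1 hnRNP-type, 5 U1 and U2 and 1 decay genes. There HNRNPA0 (−0.116), HNRNPUL1 (−0.0984), SRSF11 (0.0230), SRSF9 (−0.0312) had the other sign. Without CPL replicate 2, 425 genes were called higher and 338 lower, among them 2 U1 and U2 and 1 tri-snRNP genes. There the hnRNP median was −0.0952, and HNRNPH2 (0.0340), HNRNPL (0.00694), HNRNPUL1 (−0.0633), SRSF4 (0.0629) had the other sign. Without CPL replicate 3, 584 genes were called higher and 493 lower, among them 1 hnRNP, 2 SR-related, 1 hnRNP-type, 4 U1 and U2 and 1 tri-snRNP genes. There the SR median was −0.0121 and the hnRNP median was −0.0989, and HNRNPL (0.0360), HNRNPUL1 (−0.0989), SRSF4 (0.138), SRSF5 (0.000398) had the other sign. Without control replicate 1, 589 genes were called higher and 409 lower, among them 1 hnRNP-type, 1 U1 and U2 and 1 import genes. There the hnRNP median was −0.0775, and HNRNPH2 (0.0921), HNRNPL (7.35e-06), HNRNPUL1 (−0.0474), SRSF11 (0.0494), SRSF4 (0.0838), SRSF5 (0.00653) had the other sign. Without control replicate 2, 523 genes were called higher and 433 lower, among them 2 hnRNP, 1 SR-related, 1 hnRNP-type, 3 U1 and U2 and 1 decay genes. There HNRNPUL1 (−0.112) had the other sign. Without control replicate 3, 438 genes were called higher and 344 lower, among them 1 tri-snRNP genes. There the hnRNP median was −0.119, and HNRNPUL1 (−0.102), SRSF4 (0.0589), SRSF8 (0.00469) had the other sign. Depth limited no member but HNRNPA1L2.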
